A study of Homo sapiens with 6 samples.

Results

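Retinoic acid, the active form of vitamin A, is made, bound, sensed and broken down by a small set of proteins, and 9 of their genes were followed here in A549-GFP cells and A549-TIPARP cells. The genes were ALDH1A1, ALDH1A3, DHRS3, CRABP2, RARA, RARG, CYP26A1, RARRES1 and RARRES3, out of 53826 entries in each deposited table. They were chosen by name for their part in retinoid synthesis, binding, reception and response, at a time when the difference between the lines was known for these data, and RARRES3 was already known as a large increase. Their values in that comparison are therefore given as a description and without a test.

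A549 cells were derived from a human lung adenocarcinoma. A549-TIPARP cells had been stably transduced with the TIPARP coding region in a pMXs retroviral vector, and A549-GFP cells with GFP in the same vector. TIPARP is a mono-ADP-ribosyltransferase that the dioxin receptor induces. RNA of each line was sequenced in 3 libraries, numbered by experiment, and it is not stated whether these came from separate cultures or transductions, so the spread between them may be technical. The transgene was visible in the labels' direction: TIPARP stood at 6.79, 11.4 and 3.68 TPM (a gene's share of the transcripts in a library, corrected for transcript length) in A549-GFP replicates 1, 2 and 3, and at 131, 90.5 and 123 TPM in A549-TIPARP replicates 1, 2 and 3.

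Retinol is oxidised to retinal by retinol dehydrogenases, and retinal to retinoic acid by the ALDH1A enzymes. Reductases such as DHRS3 turn retinal back into retinol, and CYP26 enzymes hydroxylate retinoic acid for removal. In the nucleus retinoic acid binds the receptors RARA, RARB and RARG, which pair with RXR partners on paired copies of a short DNA hexamer and switch on nearby genes. Retinoids are known for their role in the growth and differentiation of lung epithelium.

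Among the 57 retinoid genes with a promoter window, the classical response element lay close to an annotated start in those of CYP26A1 and RARB, and these stretches are shown because they let the response genes be read against a known binding sequence. The promoter windows of RefSeq on GRCh38.p14, from 250 bases before to 50 bases after each annotated start, were searched on both strands for paired copies of a hexamer in the same orientation, with 1, 2 or 5 bases between them. The hexamer was taken as AGGTCA, as its variant AGTTCA, as the form GGGTCA or as the form GGTTCA. The sequences are printed 5′ to 3′ on the strand of the gene, the plus strand in both cases. Capitals mark the repeat together with its 5-base spacer.
CYP26A1: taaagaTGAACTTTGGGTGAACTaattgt
RARB: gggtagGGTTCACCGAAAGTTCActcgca
The CYP26A1 stretch lies at chr10:93073797-93073825. Its repeat runs in the opposite orientation to the gene, from 90 to 74 bases before an annotated start, and falls in an untranslated exon of 1 of 6 GENCODE 44 transcripts and outside the other 5. The RARB stretch lies at chr3:25428204-25428232, with the repeat from 53 to 37 bases before a start. It falls in an untranslated exon of 3 of 23 transcripts, in an intron of 8 and outside 12. The repeat with 5 bases between the copies was present in 31 of 35116 windows, or 0.0883%. The windows of the listed retinoid genes held it in 2 of 94, and those of the members in 1 of 13. Of the 9 members, 8 had a window in the table, all but RARRES3. The repeats with 1 or 2 bases between copies were in 0.131% and 0.0399% of all windows and in none of the 94. Single hexamers were common, in 38.6% of all windows and 36.2% of the 94. A match in these letters is a description of the sequence only.

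The levels of the members ran from the floor of the tables to the most abundant transcripts. By TPM, ALDH1A1 was by far the most abundant, from 2998 to 7123 TPM, and it ranked between 11 and 34 among all entries of a library. DHRS3 followed, from 56.5 to 230.6 TPM. RARRES1, RARA and RARG came next, from 7.11 to 37.8, from 12.5 to 27.9 and from 11.9 to 17.0 TPM, and their ranges overlapped, so their order was not set beyond the spread between libraries. ALDH1A3, RARRES3 and CRABP2 overlapped likewise between 1 and 6.17 TPM. CYP26A1 was at or close to the lowest level that the tables show.

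The tables give no TPM below 1, which is listed as a log2 value of 0. Genes with more than 2 TPM in at least 1 library were analysed, which kept 13181 entries and 8 of the 9 members, with CYP26A1 as the exception. Since the level in A549-TIPARP cells alone brought RARRES3 past this limit, the members that passed are not a fair sample of the 9.

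RARRES3 was the only member more than 2-fold apart between the lines. It encodes a phospholipase and acyltransferase of the PLAAT family (current symbol PLAAT4) that is known as a retinoid-induced growth suppressor. In hg38 the gene spans bases 63536808 to 63546462 of chromosome 11, plus strand. In A549-GFP cells RARRES3 was at the floor of 1 TPM in replicates 1 and 2 and at 1.48 TPM in replicate 3, whereas A549-TIPARP replicates 1, 2 and 3 held 5.52, 5.16 and 6.17 TPM. The lines did not overlap, and the A549-TIPARP libraries were close to each other. The mean log2 TPM was 0.19 ± 0.33 in A549-GFP cells and 2.49 ± 0.13 in A549-TIPARP cells (SD, n = 3), a difference of 2.30 or 4.91-fold. Because of the floor, the A549-GFP mean is an upper limit and the fold a low estimate. On log2(TPM + 1) the difference was 1.62, and without A549-GFP replicate 2 it was 2.20 on the deposited log2 scale. Of all analysed genes, 1.53% were more than 2-fold higher in A549-TIPARP cells and 0.432% more than 2-fold lower. The 8 analysed members counted 1 and 0. The counts of all genes, 202 and 57, moved with single libraries. The higher count was 324 without A549-GFP replicate 1 and 383 without replicate 2, and the lower count was 153 without A549-GFP replicate 1, 200 without replicate 3 and 103 without A549-TIPARP replicate 3. On log2(TPM + 1) they were 78 and 20. In RNA from whole cultures, a change in the number of cells that express a gene and a change in the RNA per cell cannot be told apart.

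**Figure D1:**
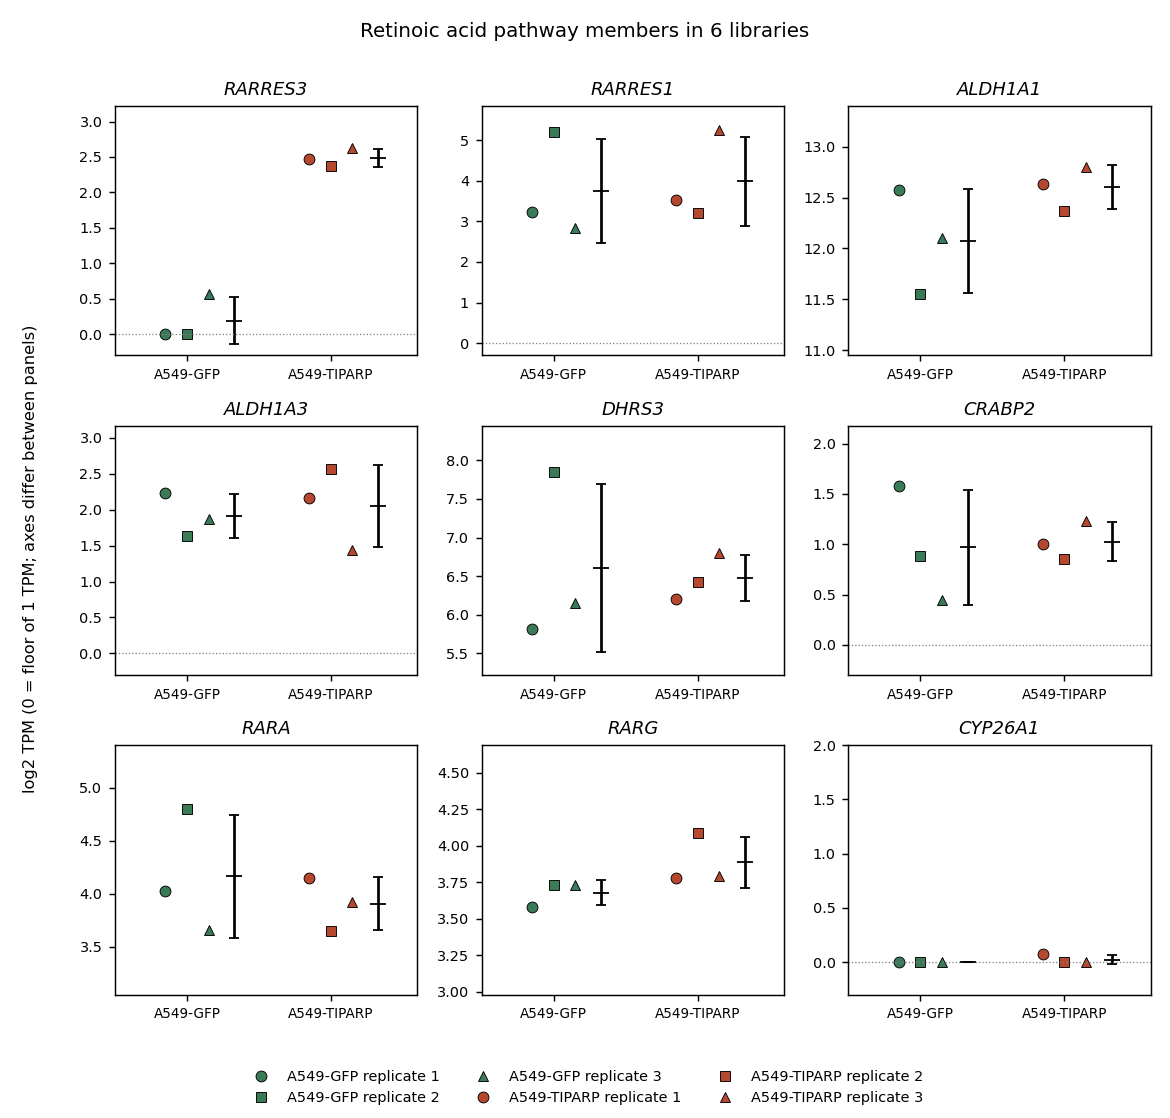
Log2 TPM of the 9 members in each library of A549-GFP cells (green) and A549-TIPARP cells (red), with circles, squares and triangles for replicates 1, 2 and 3 and black bars for the mean and SD of 3 libraries; the dotted line is the floor of 1 TPM. RARRES3 separated the lines, at most 1.48 TPM against at least 5.16 TPM, while RARRES1 and DHRS3 had their highest A549-GFP value in replicate 2.

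RARRES1, the other retinoic acid receptor responder among the members, overlapped between the lines. It encodes a membrane protein related to the carboxypeptidase inhibitor latexin and was first found as a gene induced by the retinoid tazarotene. It occupies bases 158696892 to 158732489 of chromosome 3, minus strand. RARRES1 was at 9.32, 37.1 and 7.11 TPM in A549-GFP replicates 1, 2 and 3. The A549-TIPARP libraries, in the same order, held 11.5, 9.19 and 37.8 TPM. Each line thus had 1 high library, A549-GFP replicate 2 and A549-TIPARP replicate 3, with the other 4 between 7.11 and 11.5 TPM. The mean log2 TPM was 3.75 ± 1.28 and 3.99 ± 1.10 (SD, n = 3), a difference of 0.23. It became 0.96 without A549-GFP replicate 2, -0.40 without A549-TIPARP replicate 3 and 0.33 without both. It was also negative without A549-GFP replicate 1 (-0.03) or replicate 3 (-0.23). RARRES1 shares its first bases with the start of MFSD1 on the other strand, and whether strand was used in counting is not stated.

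The retinal dehydrogenases were very unequal. ALDH1A1, which oxidises retinal to retinoic acid and also detoxifies other aldehydes, occupies bases 72900671 to 73080442 of chromosome 9, minus strand. ALDH1A1 was at 6060.4, 2998 and 4404 TPM in A549-GFP replicates 1, 2 and 3. The A549-TIPARP libraries held 6338, 5306 and 7123 TPM. A549-GFP replicate 2 was the lowest library and A549-GFP replicate 1 lay among the A549-TIPARP libraries, so the lines overlapped. The mean log2 TPM was 12.07 ± 0.51 and 12.60 ± 0.21 (SD, n = 3), a difference of 0.53 that became 0.27 without A549-GFP replicate 2. ALDH1A1 transcripts made up 0.607%, 0.300% and 0.441% of the TPM above the floor in the A549-GFP libraries and 0.635%, 0.532% and 0.714% in the A549-TIPARP libraries.

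ALDH1A3 encodes the isozyme with the same reaction and occupies bases 100877714 to 100916626 of chromosome 15, plus strand. It was at 4.70, 3.09 and 3.66 TPM in A549-GFP cells and at 4.48, 5.92 and 2.71 TPM in A549-TIPARP cells. The highest and the lowest of the 6 libraries were both of A549-TIPARP cells. The log2 TPM difference was 0.14, with SDs of 0.30 and 0.57 (n = 3), and it was -0.11 without A549-TIPARP replicate 2. In TPM, ALDH1A1 exceeded ALDH1A3 by between 896-fold and 2624-fold in a library. ALDH1A2, the third isozyme, was at the floor in all 6 libraries.

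DHRS3 encodes a reductase that returns retinal to retinol, and it is known to be induced by retinoic acid. It occupies bases 12567910 to 12618210 of chromosome 1, minus strand. Its TPM was 56.5, 230.6 and 71.1 in A549-GFP replicates 1, 2 and 3 and 74.2, 86.5 and 111.6 in A549-TIPARP replicates 1, 2 and 3. A549-GFP replicate 2 stood above all other libraries and the other 2 A549-GFP libraries stood below all 3 A549-TIPARP libraries. The mean log2 TPM was 6.61 ± 1.09 and 6.48 ± 0.30 (SD, n = 3), a difference of -0.12, which became 0.50 without A549-GFP replicate 2.

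CRABP2, which carries retinoic acid to its receptors in the nucleus, occupies bases 156699606 to 156705816 of chromosome 1, minus strand, and was barely above the floor. It was at 2.99, 1.84 and 1.36 TPM in A549-GFP cells and at 2.01, 1.80 and 2.35 TPM in A549-TIPARP cells. The A549-TIPARP libraries fell within the A549-GFP range, and the log2 TPM difference was 0.06 (SDs of 0.57 and 0.19, n = 3).

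Both receptor genes among the members were expressed at moderate levels. RARA occupies bases 40309180 to 40357643 of chromosome 17, plus strand. Its TPM was 16.3, 27.9 and 12.7 in A549-GFP cells against 17.7, 12.5 and 15.2 in A549-TIPARP cells, and A549-GFP replicate 2 was again the highest. The log2 TPM difference was -0.26 (SDs of 0.58 and 0.25, n = 3), and it was 0.06 without A549-GFP replicate 2. An antisense entry within the gene, RARA-AS1, was at between 2.12 and 6.60 TPM, also with its highest value in A549-GFP replicate 2, and reads of the pair cannot be told apart if strand was not used. RARG occupies bases 53210567 to 53232980 of chromosome 12, minus strand. It was the steadiest member above the floor, at 11.9, 13.3 and 13.3 TPM in A549-GFP cells and at 13.8, 17.0 and 13.8 TPM in A549-TIPARP cells. The lines did not overlap for RARG, by a small margin. The mean log2 TPM was 3.68 ± 0.09 and 3.89 ± 0.17 (SD, n = 3), a difference of 0.21.

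RARB, the receptor gene whose promoter window holds the match shown above, is itself induced by retinoic acid in many cells. It was at 16.9, 15.5 and 11.9 TPM in A549-GFP cells and at 12.4, 14.2 and 14.2 TPM in A549-TIPARP cells. The lines overlapped, with a difference of -0.10 on log2(TPM + 1) (standard error 0.21, limma adjusted p = 0.994). The 3 receptor genes together were at 45.1, 56.7 and 37.9 TPM in A549-GFP cells and at 43.8, 43.7 and 43.2 TPM in A549-TIPARP cells. The A549-TIPARP sums lay inside the A549-GFP range.

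CYP26A1, the other gene with a match, encodes a retinoic acid hydroxylase whose mRNA rises sharply with retinoic acid in many cells. It occupies bases 93073475 to 93077885 of chromosome 10, plus strand. CYP26A1 was at the floor in 5 libraries and at 1.05 TPM in A549-TIPARP replicate 1. No difference between the lines can be given at this level. CYP26B1, the isozyme that was expressed, was at 13.5, 35.7 and 13.5 TPM in A549-GFP cells and at 9.82, 11.9 and 14.0 TPM in A549-TIPARP cells. Its highest value was again that of A549-GFP replicate 2, and the log2(TPM + 1) difference was -0.63 (standard error 0.37, limma adjusted p = 0.994). In log2 TPM it was -0.67, and -0.20 without A549-GFP replicate 2.

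Separation of the lines was counted for all members. For 2 of the 8 analysed members, RARG and RARRES3, all A549-TIPARP libraries lay above all A549-GFP libraries, against 5.36% of all analysed genes. For none did they lie below, against 3.54%. The mean was higher in A549-TIPARP cells for 6 of the 8 and lower for 2, where 40.1% of all genes were higher and 59.9% lower. Without A549-GFP replicate 2, 42.6% of all genes were lower. Since the members were chosen with this contrast known, nothing is read from these counts.

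A549-GFP replicate 2 stood apart from the other libraries of these data as a whole. In it, 23.0% of the analysed genes were more than 2-fold away from the mean of the other 2 libraries of its line, against between 0.910% and 8.18% for the other 5 libraries. The summed TPM of 5 epithelial markers (KRT8, KRT18, KRT7, EPCAM and CDH1) ranged from 10771 to 23386 in A549-GFP cells and from 18533 to 22170.5 in A549-TIPARP cells, lowest in A549-GFP replicate 2. KRT8 and KRT18 made up most of the sum and were lowest in that library, at 3855 and 4176 TPM, whereas KRT7 and CDH1 were highest there, at 2433 and 141.6 TPM, and EPCAM lay within the range of the others. Of 4 leucocyte markers, PTPRC and CD3E were at the floor in all libraries. The summed TPM of the list, mostly CD68, ranged from 31.9 to 74.1 in A549-GFP cells, highest in replicate 2, and from 30.7 to 42.9 in A549-TIPARP cells. The 5 endothelial markers (PECAM1, CDH5, VWF, KDR and TEK) were at the floor throughout, as were 4 of 5 mesenchymal markers (THY1, PDGFRB, PDGFRA and DCN). COL1A1, the fifth, gave the list a sum from 0 to 1.44 TPM in A549-GFP cells and from 1.64 to 2.56 TPM in A549-TIPARP cells. The part of these shifts in the values of the retinoid genes was not tested.

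**Figure D2:**
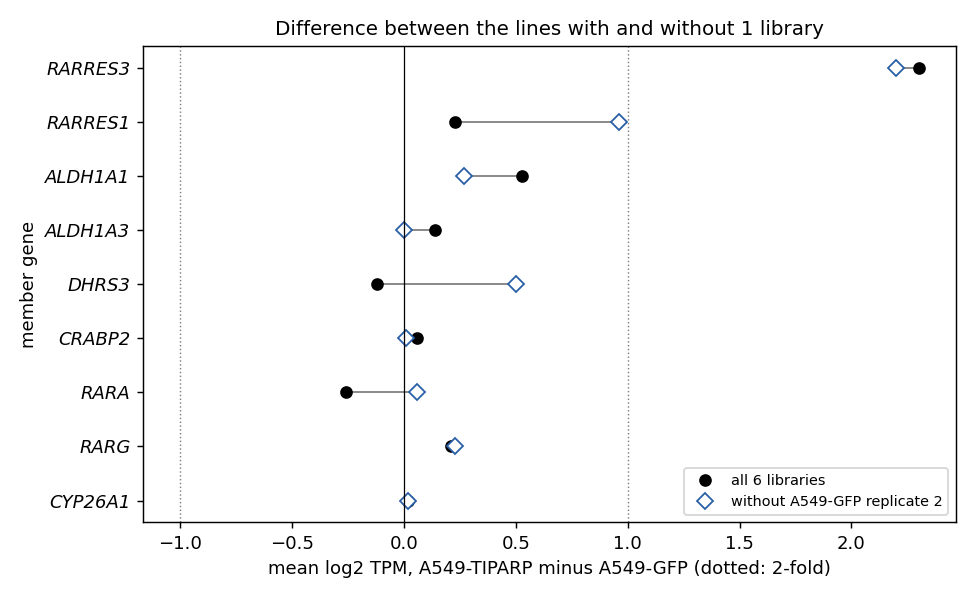
Difference in mean log2 TPM between the lines (x axis) for each member, with all 6 libraries (filled circles) and without A549-GFP replicate 2 (open diamonds); dotted lines mark 2-fold. RARRES3 went from 2.30 to 2.20, whereas RARRES1 went from 0.23 to 0.96 and DHRS3 from -0.12 to 0.50.

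Several genes of the retinoid pathway were much higher in A549-GFP replicate 2 than in the other A549-GFP libraries. DHRS3 was 3.64-fold and RARRES1 4.56-fold above the mean of the other 2. They were 2 of the 8 analysed members, beside 18.0% of all analysed genes. Among 44 other analysed retinoid genes the count was 8, or 18.2%, a share close to that of all genes. These 8 were RBP4, STRA6, RDH10, CYP26B1, GPRC5C, DHRS9, RDH14 and ADH4. RBP4, the carrier of retinol in blood, was at 181.8 TPM in A549-GFP replicate 2 and at 15.7 and 12.6 TPM in replicates 1 and 3. In A549-TIPARP cells RBP4 was at 14.5, 9.16 and 37.5 TPM, with replicate 3 the highest, and the log2(TPM + 1) difference between the lines was -0.93 (standard error 0.93, limma adjusted p = 0.994). In log2 TPM it was -0.95, and 0.28 without A549-GFP replicate 2. STRA6, the membrane receptor that takes up retinol from RBP4, was at 8.05, 37.5 and 7.80 TPM in A549-GFP cells and at 18.1, 14.2 and 29.4 TPM in A549-TIPARP cells, a log2 TPM difference of 0.56 that was 1.31 without A549-GFP replicate 2. The same libraries were the highest of their lines for RBP4, STRA6 and RARRES1. RDH10, which oxidises retinol to retinal, was at 39.4, 235.4 and 45.2 TPM in A549-GFP cells and at 26.4, 36.6 and 54.7 TPM in A549-TIPARP cells.

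A549-TIPARP replicate 3 was more than 2-fold above the other 2 libraries of its line for RARRES1 alone of the members, and for RBP4, ADH4 and TTR of the 44, beside 2.53% of all genes. It was below them for 0 of both, beside 3.07%. RARRES1, RBP4 and ADH4 were past 2-fold in both libraries, as were 1.34% of all genes. A549-GFP replicate 2 was the highest of the 6 libraries for 2 members, DHRS3 and RARA, and for 26 of the 44, or 59.1%, where 52.0% of all genes were.

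FABP5, a carrier of retinoic acid and fatty acids, went the other way in A549-GFP replicate 2, with 51.6 TPM against 281.6 and 238.2 TPM in replicates 1 and 3. In A549-TIPARP cells FABP5 was at 231.5, 261.4 and 139.0 TPM, and the log2(TPM + 1) difference was 0.42 (standard error 0.58, limma adjusted p = 0.994). In log2 TPM it was 0.43, and -0.35 without A549-GFP replicate 2. It was 1 of 2 listed genes more than 2-fold lower in that library, with RDH5, beside 4.99% of all genes, and no member was. STRA6, RDH10, GPRC5C and the other genes named here for a single library, and RARB, RXRA, PPARD, GPRC5A, ALDH1A2, LRAT, RXRG, RARRES2 and the lesser relatives of RARRES3, were chosen after their values were seen.

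**Figure D3:**
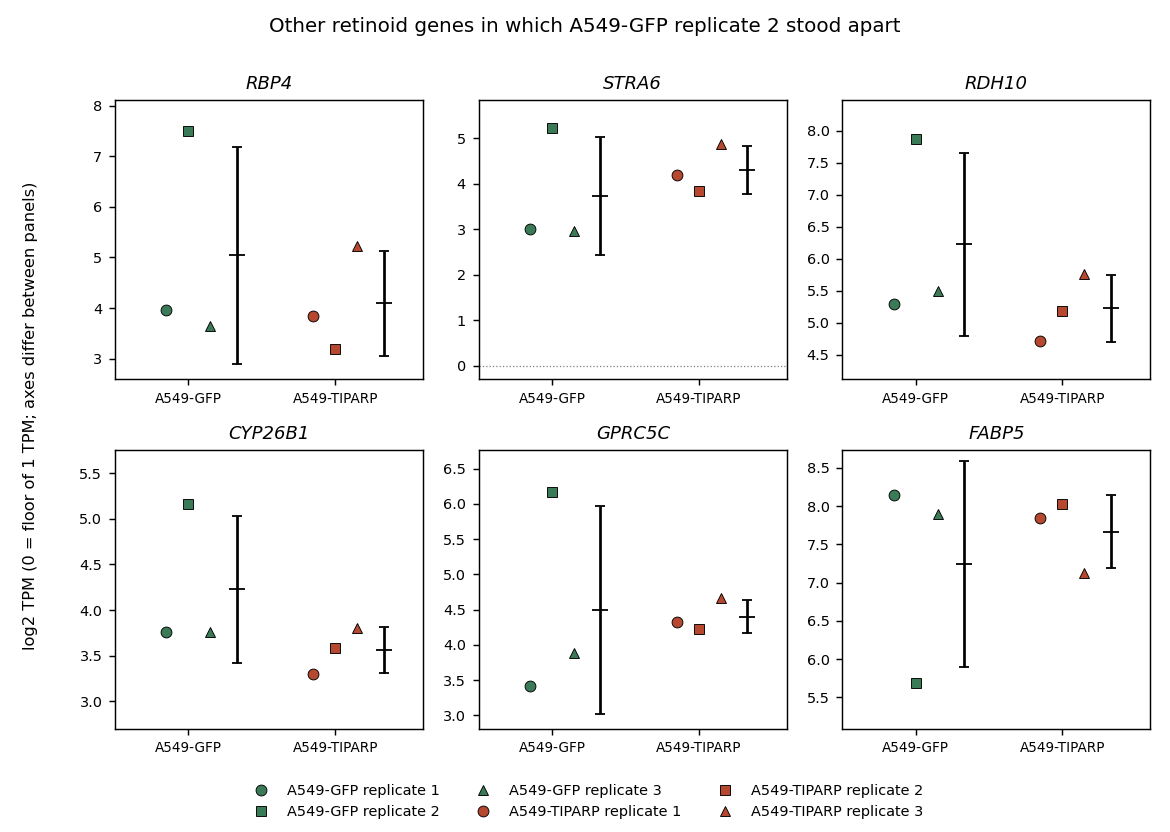
Log2 TPM of 6 other retinoid genes in each library, with symbols as in the plot of the members and black bars for the mean and SD of 3 libraries. A549-GFP replicate 2 (green squares) was highest for RBP4, STRA6, RDH10, CYP26B1 and GPRC5C and lowest for FABP5.

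Beyond the members, 66 genes of the pathway were listed by their roles, 44 of which passed the limit of 2 TPM and 18 of which were at the floor in all 6 libraries. The latter included LRAT, which makes retinyl esters for storage, the receptor RXRG and the third responder RARRES2. The list was drawn up with earlier results of these data known and takes in relatives of RARRES3. Its counts beside those of all genes are therefore a description and not independent support. The 44 were tested with limma on log2(TPM + 1) in a fit of all 13181 genes. In that fit 2 genes (0.0152%) had a Benjamini-Hochberg adjusted p under 0.05, TIPARP as the one higher in A549-TIPARP cells (0.00759%) and RBM14-RBM4 as the one lower (0.00759%). The call of TIPARP was lost with each library left out except A549-GFP replicate 2, with the replicate block (296 genes higher at an unadjusted p under 0.05) and without the filter. Of the 44, 0 did in either direction. At an unadjusted p under 0.05 there were 4 of the 44 higher in A549-TIPARP cells (9.09%) and 0 lower. Without A549-GFP replicate 2 these counts were 7 and 1, without A549-GFP replicate 3 they were 3 and 2, and without A549-TIPARP replicate 3 they were 3 and 1. Among all genes 508 (3.85%) had such a p, 392 higher (2.97%) and 116 lower (0.880%). Without A549-GFP replicate 2 there were 1226 higher and 153 lower, and without A549-GFP replicate 3 there were 347 higher and 738 lower, so the balance of directions turned with 1 library. Without A549-TIPARP replicates 1, 2 or 3 there were 216, 337 or 242 higher and 37, 57 or 77 lower. With median-ratio rescaling there were 583 higher and 203 lower, and the counts for the 44 were still 4 and 0. The median difference in log2 TPM was -0.08 over the 44 genes, 0.18 over the 8 analysed members and -0.07 over all 13181 genes. Without A549-GFP replicate 2 these medians were 0.09, 0.25 and 0.05, without A549-GFP replicate 3 they were -0.24, -0.04 and -0.17, and with median-ratio rescaling they were -0.02, 0.24 and 0.00, so no direction is given for the 44 as a group.

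GPRC5B had the largest difference of the 44. It encodes an orphan receptor of the family first described as retinoic acid-induced genes. GPRC5B was at 4.31, 2.73 and 3.28 TPM in A549-GFP cells and at 10.4, 12.9 and 12.2 TPM in A549-TIPARP cells. The lines were well apart, with no overlap. The difference was 1.54 on log2(TPM + 1), with a standard error of 0.23 and a limma adjusted p of 0.158, which ran from 0.113 to 1.0 over the alternatives. Of its relatives, GPRC5A, the most abundant, was at between 95.7 and 131.7 TPM with a log2(TPM + 1) difference of -0.01, and GPRC5C had a difference of -0.10 with a standard error of 0.59. In log2 TPM the GPRC5C difference was -0.09, and 0.75 without A549-GFP replicate 2.

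CRABP1, the second cellular carrier of retinoic acid, was at 5.40, 2.07 and 2.86 TPM in A549-GFP cells and at 9.14, 4.96 and 9.70 TPM in A549-TIPARP cells. The lines overlapped, since A549-GFP replicate 1 lay above A549-TIPARP replicate 2. The difference was 1.03 on log2(TPM + 1) (standard error 0.34, limma adjusted p = 0.983), and 1.26 on the deposited log2 scale, or 0.95 without A549-GFP replicate 2. BCO1, which cleaves beta-carotene into retinal, was at 4.23, 2.64 and 2.95 TPM in A549-GFP cells and at 6.61, 6.67 and 5.27 TPM in A549-TIPARP cells, with no overlap. Its difference was 0.76 on log2(TPM + 1), with a standard error of 0.23 and a limma adjusted p of 0.895.

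PLA2G16 (current symbol PLAAT3) is a close relative of RARRES3 and lies 26733 bases beyond it on chromosome 11. It was at 51.5, 42.6 and 54.1 TPM in A549-GFP cells and at 84.2, 84.1 and 65.1 TPM in A549-TIPARP cells. The lines did not overlap, and the difference was 0.64 on log2(TPM + 1) (standard error 0.19, limma adjusted p = 0.856). The other relatives of RARRES3 were scarcely expressed, with HRASLS and HRASLS5 at the floor in all libraries and HRASLS2 at 1.21 TPM at most.

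**Figure D4:**
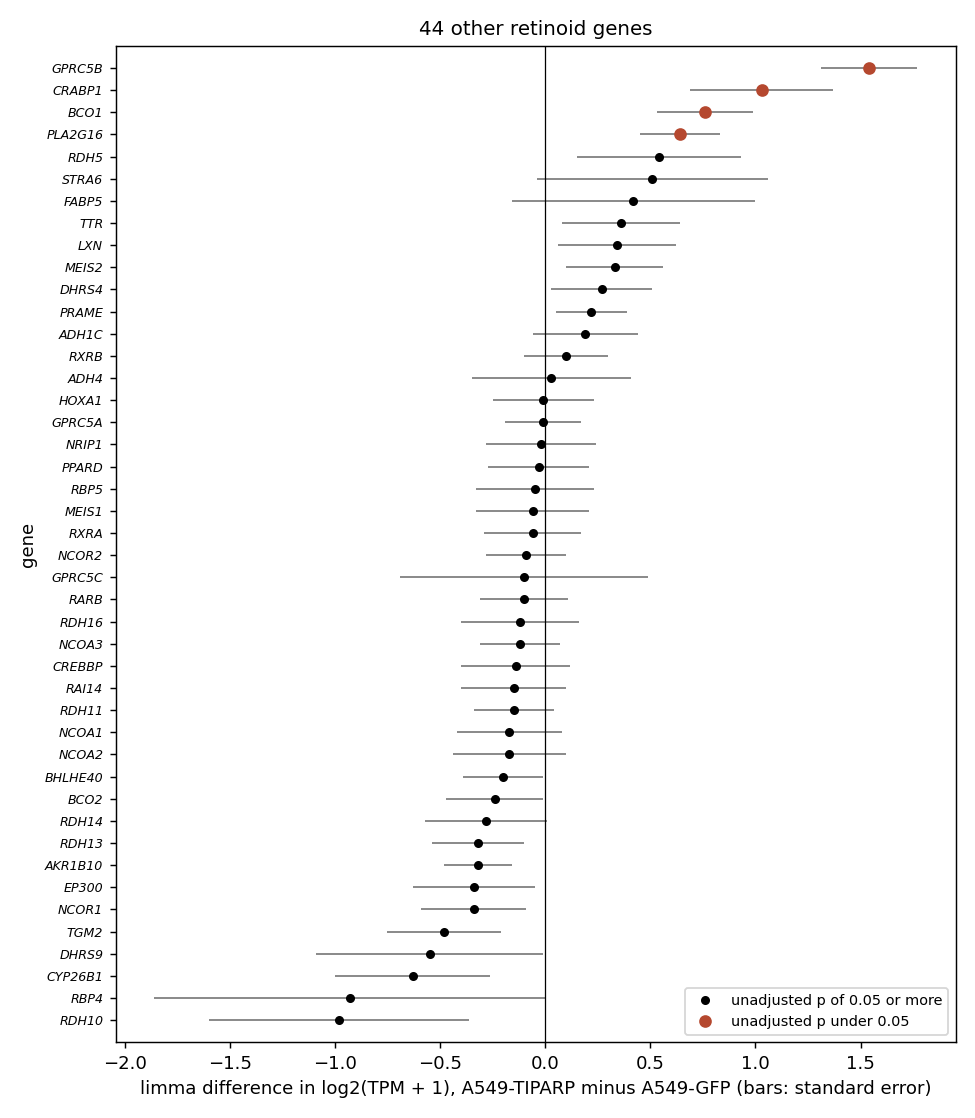
Limma difference in log2(TPM + 1) between the lines for the 44 other analysed retinoid genes, with bars for the standard error; red points have an unadjusted p under 0.05. GPRC5B, CRABP1, BCO1 and PLA2G16, at 1.54, 1.03, 0.76 and 0.64, were the 4 such genes, and none had an adjusted p under 0.05.

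Among the 11 analysed enzymes that interconvert retinol and retinal, differences in log2 TPM ran from -0.99 for RDH10 to 0.61 for RDH5. Without A549-GFP replicate 2 these were -0.17 and 0.15. AKR1B10, which reduces retinal and other aldehydes, was the most abundant gene of the list. It was at 7637, 5621 and 6749 TPM in A549-GFP cells and at 5397.5, 5539 and 4938 TPM in A549-TIPARP cells, all below the A549-GFP libraries. Its log2(TPM + 1) difference was -0.32 (standard error 0.16, limma adjusted p = 0.994). ALDH8A1, a further retinal dehydrogenase, was at 1.15 TPM at most. The RXR partners RXRA and RXRB and the fatty acid receptor PPARD differed by -0.06, 0.10 and -0.02 in log2 TPM. Without A549-GFP replicate 2 these were 0.16, 0.24 and 0.19. RXRB was at 16.8, 22.1 and 16.2 TPM in A549-GFP cells and at 19.9, 18.1 and 20.7 TPM in A549-TIPARP cells. The 9 coregulators of the receptors differed by between -0.36 (EP300) and 0.22 (PRAME), which were -0.14 and 0.31 without A549-GFP replicate 2. PRAME, a repressor of receptor signalling and the most abundant of them, was at 72.9, 91.7 and 78.2 TPM in A549-GFP cells and at 86.8, 103.4 and 92.2 TPM in A549-TIPARP cells. TGM2, the transglutaminase that retinoic acid induces in many cells, was at 332.1, 409.9 and 254.0 TPM in A549-GFP cells and at 229.0, 170.5 and 324.7 TPM in A549-TIPARP cells. The lines overlapped for RXRB, PRAME and TGM2.

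The genes whose values over the 6 libraries were most like those of RARRES3 were DBN1, SLC44A2, DSE, LOC100130111 and KCNS3, with Pearson correlations of log2 TPM between 0.987 and 0.995. They were taken from 166 analysed genes (1.26%) with a correlation above 0.9. All 5 were higher in each A549-TIPARP library than in any A549-GFP library, so the correlations include the difference between the lines. DBN1, an actin-binding protein, was far more abundant than RARRES3, at 49.5, 50.1 and 52.9 TPM in A549-GFP cells and at 82.2, 78.0 and 86.7 TPM in A549-TIPARP cells. SLC44A2, a choline transporter, was at 1.97, 1.96 and 2.79 TPM in A549-GFP cells and at 6.22, 6.91 and 8.28 TPM in A549-TIPARP cells. As for RARRES3, replicate 3 was the highest A549-GFP library for all 5 genes. The highest A549-TIPARP library was replicate 3 for DBN1, SLC44A2 and DSE, as for RARRES3, and replicate 1 for LOC100130111 and KCNS3. Likeness in library order follows from picking the genes by correlation over these same 6 libraries, and nothing further is read from it. DSE and KCNS3, like RARRES3, passed the limit of 2 TPM only through A549-TIPARP libraries.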

How the data were processed

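Total RNA was extracted with TRIzol and treated with DNase. Libraries were made from it with TruSeq Stranded mRNA reagents and sequenced as paired ends on a NovaSeq instrument. Alignment by the authors used Strand NGS, default settings, against transcripts of hg38, and they deposited log2 TPM for each gene and library, with TPM below 1 set to 1. The tables hold no read counts, so depth and counting error are unknown. Software version, annotation release, strand use and the handling of multiply matching reads are not given in the sources used here.

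Samples were grouped and numbered by their titles. The titles number the experiments. The names of the deposited tables bear different numbers, whose meaning is not stated and which were not taken up. Members were described by TPM per library and by mean ± SD of log2 TPM. The other genes were tested with limma 3.58.1 in R 4.3.3 (variance trend, log2(TPM + 1), no block, Benjamini-Hochberg adjustment over all genes with TPM above 2 in at least 1 library). The code of the fit was also run on simulated data. That simulation used independent noise for each gene and no library that stood apart, so it does not show how the fit behaves with A549-GFP replicate 2. The members, the role lists and the marker lists were chosen with earlier results of these data known. Named genes were the members, TIPARP, listed genes past 2-fold or with an unadjusted p under 0.05, the most abundant gene of each role and the 5 genes most correlated with RARRES3. Any other gene was named after its values were seen. Gene coordinates are from GENCODE 44 on hg38, and promoter windows from RefSeq on GRCh38.p14. The alternatives changed the pseudocount, the scaling, the filter, the trend and the means, added the replicate block, or left out libraries.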

Additional observations from a re-analysis of the deposited data

How the results depend on the processing

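RARRES3 kept its direction and its place past 2-fold in all 11 alternatives, and its log2 difference ran from 1.62 with a pseudocount of 1 to 2.49. With each library left out in turn it ran from 2.20 to 2.49. Of the other members, ALDH1A1 and RARG stayed higher in A549-TIPARP cells, at 0.17 to 0.77 and 0.11 to 0.28. ALDH1A3, CRABP2, DHRS3, RARA and RARRES1 changed sign in at least 1 alternative. Leaving out A549-GFP replicate 2 and A549-TIPARP replicate 3 together, and recomputing the medians of the gene lists, were added once the data had been seen.

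The number of other retinoid genes called was 0 in each direction under all alternatives. Same-numbered libraries deviated from their line means with correlations across genes of 0.415, -0.486 and -0.358. Deviations cancel out within a line, so 1 strong match between libraries lowers the other values. The correlations therefore cannot decide whether the title numbers pair the libraries. Differently numbered libraries reached 0.502 (A549-GFP replicate 1 with A549-TIPARP replicate 2), 0.597 (2 with 3), 0.293 (3 with 2) and 0.238 (3 with 1), and only A549-TIPARP replicate 1 correlated best with its own number. With the replicate block limma called 0 genes higher and 1 lower, in place of 1 (TIPARP) and 1, and 0 retinoid genes. Without a filter it called 0 genes higher. With each library left out it called from 0 to 2 genes higher and from 1 to 3 lower. The higher count was 0 without A549-GFP replicates 1 or 3 or any A549-TIPARP library, and 2 without A549-GFP replicate 2.

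Past 2-fold there were 202 genes in the higher direction and 57 in the lower. A pseudocount of 1 gave 78 and 20. Median-ratio rescaling gave 37 lower and arithmetic means 143. Leaving out each library gave from 228 to 383 higher, the most without A549-GFP replicate 2, and from 39 to 200 lower, the most without A549-GFP replicate 3. The causes of these shifts were not tested. Depth is unknown, and differences between levels that are both below 1 TPM cannot be seen.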

Other observations

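The genes next to both RARRES genes were read after the members' values had been seen, taking the 3 nearest analysed entries on each side in GENCODE 44. Beyond PLA2G16 on chromosome 11 lie ATL3 and RTN3, 77625 and 134984 bases from RARRES3. ATL3, which shapes the endoplasmic reticulum, was at between 24.5 and 34.5 TPM with a log2 TPM difference of -0.14. RTN3, a reticulon of the same membrane, was at 161.4 TPM in A549-GFP replicate 2 and between 72.0 and 95.4 TPM in the other libraries, with a difference of -0.13. Leaving out A549-GFP replicate 2 gave -0.08 for ATL3 and 0.23 for RTN3. On the other side the nearest analysed entries, SLC3A2 and the small nucleolar RNAs SNORD25 and SNORD26 in its neighbourhood, were 647928 bases away or more. SLC3A2, the heavy chain of amino acid transporters, had a difference of -0.42. SNORD26 had a difference of 1.04, with 9.70, 1.98 and 3.74 TPM in A549-GFP cells against 11.8, 8.48 and 6.27 TPM in the A549-TIPARP libraries, and SNORD25 a difference of 0.55. The differences of SLC3A2, SNORD26 and SNORD25 were -0.35, 0.51 and 0.32 without A549-GFP replicate 2. The lines overlapped for both RNAs.

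Around RARRES1 on chromosome 3, LXN, which encodes the related latexin, was at 13.4, 24.6 and 13.9 TPM in A549-GFP cells and at 18.5, 19.7 and 26.6 TPM in A549-TIPARP cells. Its highest libraries were A549-TIPARP replicate 3 and A549-GFP replicate 2, as for RARRES1, over a smaller range. MFSD1, which starts next to RARRES1 on the other strand, was at between 28.2 and 41.2 TPM with a difference of 0.04. GFM1, MLF1, SCHIP1 and IQCJ-SCHIP1 had differences of -0.53, 0.23, -0.07 and -0.05. In the same order these were -0.35, 0.16, 0.06 and 0.07 without A549-GFP replicate 2, and that of MFSD1 was 0.17.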
